A study of Homo sapiens with 4 samples.

Results

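The 10 genes described here are the standard regulators and markers of epithelial-mesenchymal transition (EMT): the transcription factor genes SNAI1, SNAI2, ZEB1, ZEB2 and TWIST1, the mesenchymal genes VIM, CDH2 and FN1, and the epithelial genes CDH1 and EPCAM. They were taken by gene name, through GENCODE release 29, from the 58735 genes of each deposited table, and all 10 were found. RNA-seq had been done on 4 libraries labelled as the human liver cancer line Huh7, 2 with a short hairpin RNA directed at NME7 (shNME7) and 2 with a control hairpin (shCtrl). The labels name no clone, no selection, no second hairpin and no time after transduction, and they do not say that replicates were separate cultures, so the tests measure only the spread between these libraries. Levels are given in FPKM (fragments per kilobase of exon, scaled to library size) for shNME7 1 and 2 and then shCtrl 1 and 2.

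In EMT, epithelial cells lose the junctions that hold them together and take on a motile, mesenchymal form. The SNAI, ZEB and TWIST factors bind E-box sequences and repress epithelial genes, first among them CDH1, which encodes the junction protein E-cadherin, while N-cadherin (CDH2), the intermediate filament protein vimentin (VIM) and the matrix protein fibronectin (FN1) increase. The miR-200 microRNAs hold ZEB1 and ZEB2 mRNA down in epithelial cells, and the ZEB proteins in turn repress the miR-200 genes. In liver cancer, loss of E-cadherin and gain of vimentin mark less differentiated cells.

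The sequences behind the loop between miR-200 and ZEB are shown here because the ZEB genes were expressed in these libraries and the miR-200 genes were listed at 0. The miR-200 family falls into a pair of seed groups that differ at 1 base, with the seed (bases 2 to 8) in capitals. RefSeq places MIR200B, MIR200A and MIR429 on chromosome 1 and MIR200C and MIR141 on chromosome 12 (GRCh38.p14).
miR-200b-3p: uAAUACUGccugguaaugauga
miR-200c-3p: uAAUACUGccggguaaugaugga
miR-429: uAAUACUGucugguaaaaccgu
miR-200a-3p: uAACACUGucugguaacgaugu
miR-141-3p: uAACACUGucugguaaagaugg

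Matches to these seeds, CAGTATT and CAGTGTT on the sense strand, were counted in the 3′ UTR of each member's transcript with the longest coding sequence. ZEB1 held 9 (6 CAGTATT and 3 CAGTGTT in 2549 bases) and ZEB2 also held 9 (5 and 4 in 5370 bases). Of 2186 genes with a 3′ UTR of similar length to that of ZEB1, 47.9% held at least 1 match, and the same was true of 73.9% of 925 genes for ZEB2, with medians of 0 and 1 matches. FN1 held 2 matches and SNAI2 held 1, while SNAI1, TWIST1, VIM, CDH1, CDH2 and EPCAM held 0. A match describes the letters and is not a shown binding site. A match of each kind is shown for both ZEB genes, in capitals within its flanking bases.
ZEB1, seed match of miR-200b, miR-200c and miR-429: tttatcttatCAGTATTatcactctta
ZEB1, seed match of miR-200a and miR-141: tttgatttaaCAGTGTTatgttaacat
ZEB2, seed match of miR-200b, miR-200c and miR-429: tacaatgcatCAGTATTatgattcctc
ZEB2, seed match of miR-200a and miR-141: aaattttgtaCAGTGTTaaggcctaaa

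All 5 miR-200 hairpin genes, which are 68 to 95 bases long, and the host transcript MIR200CHG had 0 fragments in all 4 libraries. Such tables count fragments over genes and do not measure mature microRNAs. The limit that 0 fragments set in a library is 3 fragments.

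Before the results, the libraries were checked against their labels. NME7 stood at 0.835 and 0.626 FPKM in shNME7 and at 3.64 and 3.93 FPKM in shCtrl, and was lower in both shNME7 libraries. Its call depended on the test, since limma-trend gave an adjusted p of 0.310 and limma-voom one of 0.000998. The hepatocyte markers went against the label Huh7 in all 4 libraries. Of 10 such genes (albumin, alpha-fetoprotein, apolipoproteins and others), 9 had at most 3 fragments in every library, and APOA1, APOB and FOXA2 had 0 in each. Their summed level was 0.110 and 0.0858 FPKM in shNME7 and 0.0564 and 0.106 FPKM in shCtrl. The highest value among them was 0.0848 FPKM, for the liver transcription factor gene HNF4A. The values below therefore belong to cells that bear the Huh7 label but lacked hepatocyte transcripts. Leukocyte markers were near 0 as well, at summed levels of 0.104 and 0.598 FPKM in shNME7 and 0.197 and 0.226 FPKM in shCtrl. Recovered depth was 14877906 to 16991397 fragments per library.

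**Figure D1:**
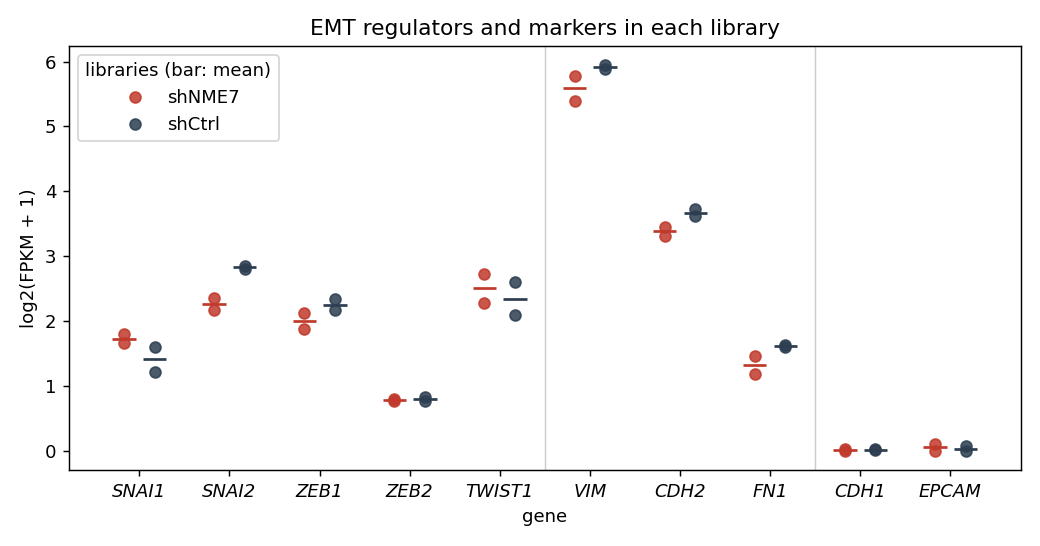
Level of each gene in each library, as log2(FPKM + 1) on the vertical axis, with shNME7 libraries to the left of shCtrl libraries and a bar at each mean (n = 2 per group). The transcription factor genes stand left of the first grey line, the mesenchymal genes between the lines and the epithelial genes at the right, where CDH1 and EPCAM lie at or near 0 in all 4 libraries.

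The epithelial members were practically absent. CDH1 (chromosome 16, 68737225 to 68835548, plus strand, GRCh38) had 2 and 0 fragments in shNME7 and 2 and 1 fragments in shCtrl. EPCAM, an epithelial adhesion protein (chromosome 2, 47345158 to 47387601, plus strand), had 3 and 0 fragments in shNME7 and 0 and 2 fragments in shCtrl. No library exceeded 3 fragments of either gene, which is the number that a count of 0 allows, so no fold change is given and a difference was not detectable at this depth. For CDH1, 3 fragments correspond to 0.0286 to 0.0323 FPKM. In shNME7 2, where CDH1 had 0 fragments, CDH2 was at 313 times that floor of 3 fragments per library, both values being per length.

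The mesenchymal members were expressed in every library. VIM was the most abundant, at 54.1 and 40.9 FPKM in shNME7 and at 58.2 and 60.6 FPKM in shCtrl. It ranked 756th of 58735 genes by mean level. Each shNME7 library was below either shCtrl library, and the spread within shNME7 was wide, with means of 47.5 ± 9.34 FPKM in shNME7 and 59.4 ± 1.66 FPKM in shCtrl (SD, n = 2 each). CDH2, the cadherin that mesenchymal cells carry in place of E-cadherin, stood at 9.93 and 8.94 FPKM in shNME7 and at 11.2 and 12.3 FPKM in shCtrl. Its groups did not overlap either, with a level in shNME7 at 80.2% of that in shCtrl. FN1, the fibronectin gene, stood at 1.27 and 1.75 FPKM in shNME7 and at 2.03 and 2.11 FPKM in shCtrl, and again the groups did not overlap. In bulk RNA, fewer cells of a kind and less RNA per cell cannot be told apart.

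All 5 transcription factor genes were detected, each with more than 30 fragments in every library. SNAI2, which encodes the repressor Slug (chromosome 8, 48917604 to 48921740, minus strand), showed the widest separation among the members. It stood at 4.12 and 3.49 FPKM in shNME7 and at 6.0 and 6.23 FPKM in shCtrl, with 210 and 201 fragments in shNME7 and 324 and 341 in shCtrl. Both shNME7 libraries were below both shCtrl libraries, and the mean was 1.61-fold lower in shNME7. ZEB1, an E-box repressor of CDH1, stood at 3.35 and 2.68 FPKM in shNME7 and at 3.51 and 4.05 FPKM in shCtrl. These groups also did not overlap, though shNME7 1 and shCtrl 1 lay close together.

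The remaining factors did not share that direction. SNAI1, the founding member of the Snail repressors, stood at 2.49 and 2.17 FPKM in shNME7 and at 2.05 and 1.32 FPKM in shCtrl. Both shNME7 libraries were above both shCtrl libraries, by a small margin between shNME7 2 and shCtrl 1. TWIST1, a basic helix-loop-helix factor that acts in mesoderm formation, stood at 3.86 and 5.62 FPKM in shNME7 and at 5.07 and 3.26 FPKM in shCtrl. Its groups overlapped, with shNME7 2 and shCtrl 1 high and shNME7 1 and shCtrl 2 low. ZEB2, the partner of ZEB1 in the same family, stood at 0.704 and 0.733 FPKM in shNME7 and at 0.700 and 0.779 FPKM in shCtrl, and overlapped as well. It rested on 265 to 315 fragments per library.

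By level per length, the order in shNME7 was VIM, CDH2, TWIST1, SNAI2, ZEB1, SNAI1, FN1, ZEB2, EPCAM and CDH1, and in shCtrl it was VIM, CDH2, SNAI2, TWIST1, ZEB1, FN1, SNAI1, ZEB2, EPCAM and CDH1. Ranges of neighbours overlapped for TWIST1 and SNAI2 and for EPCAM and CDH1 in shNME7. In shCtrl they overlapped for TWIST1 and ZEB1, for FN1 and SNAI1, and for EPCAM and CDH1. The FPKM values use the exons of all transcripts of a gene together, which for ZEB2 came to 25058 bases against 9583 in its longest transcript. With the longest transcript as length, an alternative chosen after seeing the data, the mean of ZEB2 in shCtrl was 1.93 in place of 0.740 FPKM and that of FN1 was 3.91 in place of 2.07 FPKM, and the order of ZEB2 and SNAI1 in shCtrl turned round. So did that of ZEB1 (5.22) and TWIST1 (5.08) in shCtrl and that of FN1 (2.85) and SNAI1 (2.33) in shNME7. In each of these 3 pairs the ranges of the neighbours overlapped with that length.

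The comparison of shNME7 with shCtrl asked whether knock-down of NME7 moved these genes. Of the 10 members, 7 had a mean of at least 1 FPKM and entered limma-trend, the main test, fitted to log2(FPKM + 1) over 12866 genes, while ZEB2, CDH1 and EPCAM did not. None of the 7 passed at an adjusted p under 0.05 in limma-trend, where 0% of all genes tested were called higher and 0% lower. At an unadjusted p under 0.05, limma-trend held 1 of the 7, SNAI2 on the lower side, beside 3.22% of all genes on that side and 3.46% on the higher side. limma-voom on recovered fragments called 0 of the 8 members it tested, beside 0.0926% of 15112 genes called lower and 0.0132% called higher, and held 2 of the 8, SNAI2 and FN1, lower at an unadjusted p under 0.05, beside 3.98% of genes lower and 3.94% higher. With the replicate number as a block, limma-trend called 0 of the 7, beside 0.459% of genes called higher and 0.49% called lower.

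The largest difference was that of SNAI2, at a log2 difference of -0.57 (SE 0.14) and an adjusted p of 0.598 in limma-trend. In limma-voom it was -0.69 (SE 0.21) with an adjusted p of 0.385. Without shNME7 1 the limma-trend difference of SNAI2 was -0.66, in a fit where the lone library of shNME7 was assumed to vary like shCtrl. Next came VIM at -0.33 (SE 0.17, limma-trend adjusted p 0.795), FN1 at -0.30 (SE 0.18, 0.806), CDH2 at -0.29 (SE 0.14, 0.793) and ZEB1 at -0.26 (SE 0.16, 0.819). FN1 was at -0.47 (SE 0.20) in limma-voom, with an adjusted p of 0.580 there. SNAI1 was at 0.32 (SE 0.20, 0.808) and TWIST1 at 0.16 (SE 0.23, 0.892). The sign of TWIST1 turned without shNME7 2 (-0.07) or without shCtrl 2 (-0.10). VIM was at -0.53 without shNME7 1 and at -0.13 without shNME7 2, FN1 at -0.16 without shNME7 1, and SNAI1 at 0.52 without shCtrl 1 and 0.12 without shCtrl 2.

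**Figure D2:**
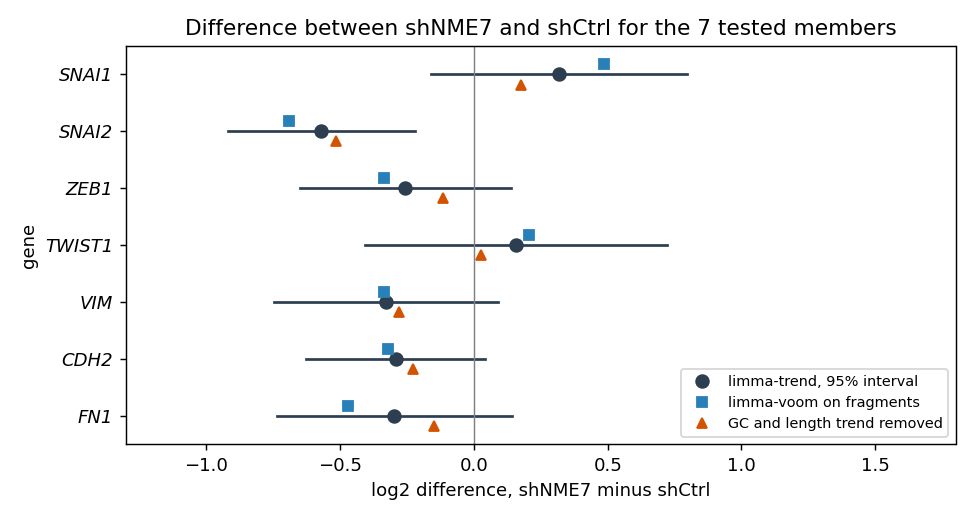
Log2 difference of shNME7 minus shCtrl for the 7 genes in the main test, with the limma-trend estimate and its unadjusted 95% interval, the limma-voom estimate, and the limma-trend estimate after a trend on GC content and exon length was removed. SNAI2, VIM, CDH2, FN1 and ZEB1 lie left of 0 and SNAI1 and TWIST1 right of it under each of these 3 estimates, and none passed after adjustment.

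By mean, 5 of the 7 tested members were lower in shNME7 and 2 were higher, beside 47.8% and 52.2% of all genes tested. In these 5 (SNAI2, VIM, CDH2, FN1 and ZEB1) the groups did not overlap, beside 18.4% of all genes tested on that side. On the higher side 1 of the 7, SNAI1, did not overlap, beside 17.8%. The members were chosen with earlier results known, so the counts are a description. The GC content of transcripts moved with this split. The 5 members on the lower side had a GC content of 38.5% (ZEB1) to 46.9% (VIM), while SNAI1 and TWIST1 had 58.2% and 57.2%. Over all genes tested, the log2 difference was larger at higher GC content, with a median of -0.06 in the bin from 40% to 45% and of 0.11 in the bin from 55% to 60%. Its Spearman correlation with GC content was 0.41. Differences between libraries of the same group went with GC content more closely, at -0.65 for shNME7 1 minus shNME7 2 and 0.62 for shCtrl 1 minus shCtrl 2. With the GC and length trend removed from each library, limma-trend gave -0.52 for SNAI2 (SE 0.08, adjusted p 0.230), -0.28 for VIM, -0.23 for CDH2, -0.15 for FN1, -0.11 for ZEB1, 0.17 for SNAI1 and 0.03 for TWIST1. SNAI2 and VIM were thus nearly as far apart as before, whereas FN1, ZEB1, SNAI1 and TWIST1 moved by over 1.5 times.

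**Figure D3:**
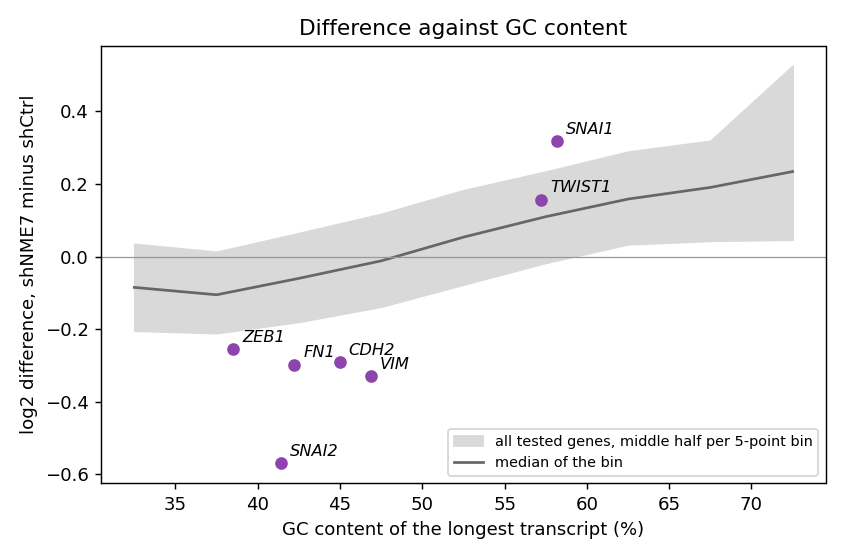
Log2 difference of shNME7 minus shCtrl in limma-trend against the GC content of the longest transcript, in percent. The grey line is the median of all genes tested in bins of 5 percentage points, the band is the middle 50% of them, and the points are the 7 tested genes. SNAI2, VIM, CDH2, FN1 and ZEB1 lie below the band, TWIST1 inside it and SNAI1 above it.

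With CDH1 near 0, the ratio of E-cadherin to N-cadherin transcripts followed CDH2. Since CDH1 had 0 fragments in shNME7 2, the ratio was taken after adding 1 FPKM to both values. The log2 ratio of CDH1 to CDH2 was -3.42 and -3.31 in shNME7 and -3.58 and -3.72 in shCtrl, a difference of 0.29. The exact two-sided permutation test gave p = 0.333, the smallest value that 2 against 2 libraries allow.

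Genes with a pattern most like that of SNAI2 and VIM over the 4 libraries were found by root mean square distance between centred log2(FPKM + 1) values, among the genes tested. Nearest to SNAI2 was HES1, a transcriptional repressor of the Notch pathway (distance 0.012), at 2.10 and 1.77 FPKM in shNME7 and at 3.32 and 3.46 FPKM in shCtrl. The sulfate transporter gene SLC26A2 followed (0.039). Nearest to VIM were RSL24D1, a ribosome assembly gene (0.0091), and CGGBP1, which encodes a CGG-repeat binding protein (0.012). With 4 libraries, a short distance describes these values only.

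The wider set of EMT genes held a mixture of epithelial and mesenchymal markers. Of 20 genes of epithelial junctions, desmosomes and keratins, 16 entered limma-trend and 0 passed. At an unadjusted p under 0.05 limma-trend held 1 of them, CLDN1 on the lower side, beside 3.22% of all genes on that side. The keratin genes that simple epithelia express were among the most abundant transcripts. KRT8 stood at 162 and 226 FPKM in shNME7 and at 163 and 143 FPKM in shCtrl, and overlapped between the groups. KRT19 had at most 1 fragment in any library and the desmosomal cadherin gene DSC2 had 0 in all 4. CLDN1, a tight junction claudin, stood at 3.61 and 2.97 FPKM in shNME7 and at 7.0 and 7.51 FPKM in shCtrl. It was lower in both tests. The decrease was called in limma-voom (log2 difference -1.15, adjusted p 0.0492) but not in limma-trend (-0.95, adjusted p 0.382). The limma-voom call was lost without shCtrl 2. With a library left out, the limma-trend difference of CLDN1 ran from -1.05 without shNME7 1 to -0.84 without shNME7 2. In such fits a lone library is assumed to vary like the other group. DSP, the desmosomal plaque gene, averaged 32.2 ± 0.718 FPKM in shNME7 and 37.3 ± 4.0 FPKM in shCtrl and did not pass.

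Of the 12 genes of the adherens junction, which ties cadherins to actin, 9 were tested. In limma-trend and limma-voom 0 passed, and 0 had an unadjusted p under 0.05. The catenin genes were expressed without CDH1. CTNNA1 (alpha-catenin) averaged 54.6 ± 1.99 FPKM in shNME7 and 62.4 ± 4.47 FPKM in shCtrl, CTNNB1 (beta-catenin) 22.9 ± 1.45 FPKM in shNME7 and 24.5 ± 0.383 FPKM in shCtrl, and the nectin gene NECTIN2 14.9 ± 2.57 FPKM in shNME7 and 12.6 ± 2.21 FPKM in shCtrl. The difference of CTNNB1, -0.09, changed sign with the GC and length trend removed (0.03).

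Factors that keep cells epithelial were split. Of 13 such genes, GRHL2, OVOL2, ESRP1, CDX2 and MIR200CHG had 0 fragments in all 4 libraries, and 6 genes were tested. In both tests 0 passed. At an unadjusted p under 0.05 both held EHF on the higher side and KLF4 and KLF5 on the lower side. Of all genes, limma-trend held 3.46% higher and 3.22% lower at that p, while for limma-voom these shares were 3.94% and 3.98%. KLF5, a zinc finger factor of epithelia, stood at 43.9 and 39.2 FPKM in shNME7 and at 57.6 and 56.8 FPKM in shCtrl. The ETS factor genes EHF and ELF3 had the opposite direction, EHF with 7.07 and 7.64 FPKM in shNME7 against 5.07 and 5.33 FPKM in shCtrl and no overlap, and ELF3 with 6.67 and 9.51 FPKM in shNME7 against 6.86 and 5.61 FPKM in shCtrl and overlap. The splicing factor gene ESRP2, chosen after its values were seen, stood at 11.4 and 15.3 FPKM in shNME7 and at 11.2 and 10.8 FPKM in shCtrl while its relative ESRP1 was at 0.

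**Figure D4:**
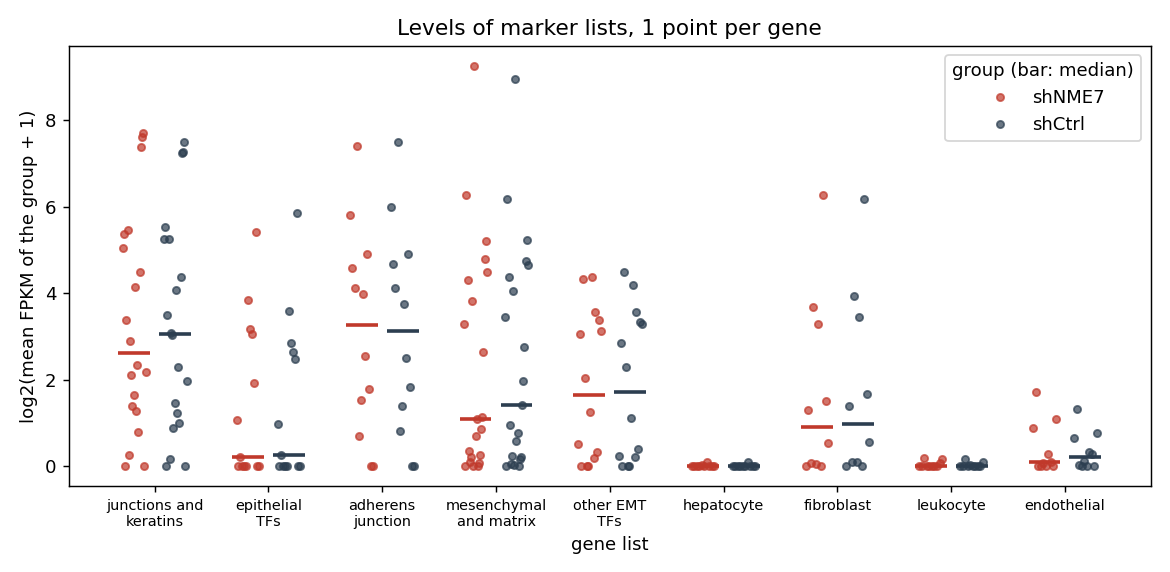
Level of each gene of 9 marker lists, as log2 of the group mean FPKM plus 1, with shNME7 to the left of shCtrl and a bar at the median of the list. Junction and keratin genes and mesenchymal genes both reach high levels, whereas hepatocyte and leukocyte markers lie at or near 0 in both groups.

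Of the 14 other EMT transcription factor genes, 8 were tested. Both limma-trend and limma-voom called 0 of them, and 0 had an unadjusted p under 0.05. The TWIST1 paralog TWIST2 stood at 7.16 and 7.46 FPKM in shNME7 and at 6.96 and 5.41 FPKM in shCtrl, without overlap. FOXC1, a forkhead factor, averaged 19.1 ± 0.0639 FPKM in shNME7 and 21.7 ± 2.70 FPKM in shCtrl. TCF3, which encodes E-box binding E proteins, averaged 19.9 ± 2.96 FPKM in shNME7 and 17.1 ± 4.32 FPKM in shCtrl, and its sign turned without shCtrl 2 (-0.03). Of 21 mesenchymal and matrix genes, 11 were tested and both limma-trend and limma-voom called 0. An unadjusted p under 0.05 was reached by 2 in limma-trend and by 3 in limma-voom, THBS1 being among them in both tests and COL6A1 in limma-voom. All were lower, beside 3.22% of all genes in limma-trend and 3.98% in limma-voom. In 5 of the 11 the groups did not overlap on the lower side and in 1 on the higher side, beside 18.4% and 17.8% of all genes tested. S100A4, a calcium-binding protein of motile cells, averaged 609 ± 43.0 FPKM in shNME7 and 495 ± 2.93 FPKM in shCtrl, the collagen cross-linking enzyme gene LOX 13 ± 1.52 FPKM in shNME7 and 15.5 ± 0.886 FPKM in shCtrl, and COL1A1 8.74 ± 0.433 FPKM in shNME7 and 10.02 ± 1.14 FPKM in shCtrl.

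TGF-beta is the best known inducer of EMT. Of 15 ligand, receptor and SMAD genes, 13 were tested and both limma-trend and limma-voom called 0. An unadjusted p under 0.05 was reached by TGFBR1 and SKIL in limma-trend and by these and SMAD7 in limma-voom. All lay on the lower side, beside 3.22% of all genes in limma-trend and 3.98% in limma-voom. The type I receptor gene TGFBR1 stood at 89.8 and 65.9 FPKM in shNME7 and at 102 and 115 FPKM in shCtrl. SKIL, a SMAD repressor gene that TGF-beta induces, stood at 8.78 and 5.35 FPKM in shNME7 and at 10.2 and 11.1 FPKM in shCtrl, and SMAD7, the inhibitory SMAD gene, at 5.42 and 6.70 FPKM in shNME7 and at 10.8 and 7.24 FPKM in shCtrl. In all 3 genes both shNME7 libraries were below both shCtrl libraries. They were the only 3 of the 13 tested without overlap on that side, beside 18.4% of all genes tested. These genes were named for their small p, so the separation is a description. Without shNME7 1, the log2 difference of SKIL was -0.87 in limma-trend, with the lone shNME7 library assumed to vary like shCtrl. In limma-voom it was -0.99 for SKIL and -0.71 for TGFBR1. Without shNME7 2, the limma-trend differences were -0.25 for SKIL and -0.26 for TGFBR1. SMAD7 ran from -0.74 without shCtrl 2 to -0.23 without shCtrl 1 in limma-trend.

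Among 13 matrix receptor genes 9 were tested, and among 14 partners of the SNAI1 and ZEB repressors all 14 were, and both limma-trend and limma-voom called 0. At an unadjusted p under 0.05 limma-trend held 0 genes of either list and limma-voom 1 of each, DDR2 and EZH2. Both were lower, beside 3.98% of all genes in limma-voom. The integrin gene ITGB1, a fibronectin receptor chain, averaged 141 ± 5.42 FPKM in shNME7 and 161 ± 14.5 FPKM in shCtrl. ITGAV, another such chain, averaged 12.3 ± 1.45 FPKM in shNME7 and 14.5 ± 0.764 FPKM in shCtrl, and the syndecan gene SDC4 15.2 ± 0.0785 FPKM in shNME7 and 17.2 ± 0.326 FPKM in shCtrl. Among the partners, the histone methyltransferase gene EZH2 averaged 14.4 ± 1.52 FPKM in shNME7 and 18.4 ± 1.05 FPKM in shCtrl. GSK3B, whose kinase marks the SNAI1 protein for degradation, averaged 12.6 ± 0.571 FPKM in shNME7 and 15.9 ± 0.703 FPKM in shCtrl, and the corepressor gene RCOR1 13.4 ± 0.505 FPKM in shNME7 and 16.2 ± 1.39 FPKM in shCtrl. Over the lists described so far beyond the members, the median log2 difference ran from -0.12 (mesenchymal and matrix genes) to 0.16 (epithelial factors). It was 0.01 over all genes tested. Outside that range lay the fibroblast and stellate markers (-0.17) and the 1 tested endothelial marker (0.38), both described below.

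RefSeq promoter windows, 250 bases before to 50 after a start, are reported here for 5 of the 10 members. They were searched on both strands for the E-box CACCTG, the cyclic AMP response element TGACGTCA and the CCAAT box CCAAT, motifs of which none overlaps another in these windows. Of all 35116 windows of that length, 20.6% held the E-box, 1.85% the response element and 34.6% the CCAAT box. Windows of ZEB1 at 2 of its 7 starts held the E-box, with 3 copies in the window chr10:31318966-31319265, 2 of them before the start, and those of ZEB2, VIM, CDH2 and FN1 held none. FN1 held the response element and a CCAAT box, and both CDH2 windows a CCAAT box. The parts before the start that hold most E-boxes (ZEB1) and the response element (FN1) are shown on the gene's strand, with motifs in capitals, on GRCh38.p14. A match is a description and not a site of action.
ZEB1, chr10:31318966-31319215, plus strand: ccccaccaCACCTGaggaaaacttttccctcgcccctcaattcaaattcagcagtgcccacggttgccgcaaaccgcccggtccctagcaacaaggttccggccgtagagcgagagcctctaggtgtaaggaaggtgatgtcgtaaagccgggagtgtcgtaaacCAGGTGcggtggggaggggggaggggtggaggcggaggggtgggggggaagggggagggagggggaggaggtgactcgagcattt
FN1, chr2:215436069-215436318, minus strand: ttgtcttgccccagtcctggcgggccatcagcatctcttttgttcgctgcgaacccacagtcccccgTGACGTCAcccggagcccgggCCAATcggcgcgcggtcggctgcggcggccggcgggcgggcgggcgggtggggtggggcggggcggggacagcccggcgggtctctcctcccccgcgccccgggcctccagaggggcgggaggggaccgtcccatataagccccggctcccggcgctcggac

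Whether the counts used strand is not given in the sources used here, so fragments of members and of genes on the opposite strand that overlap their exons may not be separable. VIM-AS1, which overlaps 12.4% of the VIM exon bases, had 43 and 21 fragments in shNME7 and 28 and 20 fragments in shCtrl, against 4194 and 3582 fragments of VIM in shNME7 and 4778 and 5039 in shCtrl. ZEB1-AS1 overlaps 4.23% of the ZEB1 exon bases and had 182 and 97 fragments in shNME7 and 118 and 135 fragments in shCtrl, against 435 and 393 fragments of ZEB1 in shNME7 and 483 and 565 in shCtrl. The groups of ZEB1-AS1 overlapped, with the highest value in shNME7 1. How many of these fragments fell in the shared bases was not tested.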

How the data were processed

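Each library came with FPKM values per gene, the unit the authors deposited per the file headers. HISAT2 2.0.5 and hg18 are named by the submitters' processing notes, without roles. Which tool counted fragments, on which annotation and with which filters, was not given in the sources used here. GENCODE release 29 (GRCh38) holds every one of the 58735 gene IDs and supplied names, exon lengths and coordinates. FPKM times exon length gave whole multiples of a step per library for 100% of genes above 0 (within 0.01), so fragments could be recovered. The implied totals equalled median-ratio size factors, a scaling inferred from the values.

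The main test was limma-trend (limma 3.58.1, R 4.3.3) on log2(FPKM + 1) for genes with a mean of at least 1 FPKM, two-sided, with Benjamini-Hochberg adjustment over all 12866 genes and a threshold of 0.05. Differences on this scale understate changes of low genes. limma-voom took the 15112 genes averaging 10 fragments or more and the implied totals as library sizes. GC content and length were removed by loess (span 0.3). The floor of 3 fragments covers counting error only.

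Members and the 12 further lists were chosen with earlier results of these data known. Named genes are NME7, the 10 members, and of each list the genes past the threshold or the 3 with the smallest unadjusted p and at least 5 FPKM in the higher group, plus the 2 nearest genes to SNAI2 and VIM. Outside this rule, the text also names list genes at an unadjusted p under 0.05, some with little or no signal, and ESRP2. Some list genes are not reported here by name. Alternatives were another pseudocount (0.1), no filter, the replicate block, each library left out, limma-voom, TPM scaling and removal of the GC and length trend. Chosen after seeing the data were limma-voom with GC and length removed or with libraries left out, a crossed pairing and the longest transcript as length. Promoter and microRNA sequences are from RefSeq (GRCh38.p14), and target sites from GENCODE transcripts.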

Additional observations from a re-analysis of the deposited data

How the results depend on the processing

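Members of the EMT list past the threshold numbered 0 in limma-trend and in every alternative that kept all 4 libraries. A fit with a library left out rests on a lone library in 1 group. With libraries left out, the log2 difference of SNAI2 ran from -0.81 to -0.48 over limma-trend and limma-voom. That of TWIST1 ran from -0.11 to 0.52. In limma-trend alone SNAI2 ran from -0.66 to -0.48 and TWIST1 from -0.098 to 0.41. TWIST1 was negative without shNME7 2 (-0.065 in limma-trend, -0.073 in limma-voom) and without shCtrl 2 (-0.11 in limma-voom). SNAI1, SNAI2, ZEB1, VIM, CDH2 and FN1 had the same sign in all 16 alternatives. Much of this was fixed in advance. The groups of these members did not overlap, so leaving out a library could not turn the sign in limma-trend. The fits without a filter, with the replicate block and with the crossed pairing return the main estimate. TCF3 ran from -0.028 to 0.46 in limma-trend with libraries left out and was at -0.029 in limma-voom without shCtrl 2. CTNNB1 turned positive once GC and length trends were taken out (0.032 in limma-trend, 0.062 in limma-voom). The cause was not tested.

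Over all genes limma-trend called 0 genes, against 16 in limma-voom, 12 in limma-voom after GC and length removal and 112 to 632 with 1 library left out. In limma-voom the numbers were 430 without shNME7 1, 41 without shNME7 2, 39 without shCtrl 1 and 28 without shCtrl 2, where a lone library is assumed to vary like the other group. Genes of the further lists past the threshold numbered 0 in limma-trend, 1 (CLDN1) in limma-voom before and after GC and length removal, 0 to 4 in limma-trend with libraries left out and 1 to 6 in limma-voom likewise. With the replicate number as a block limma-trend called 122 genes and 1 list gene, CLDN1, but same-numbered libraries did not deviate together (correlation -0.35 across genes), so the numbers are not taken to pair the libraries. The crossed pairing called 0 genes. The block called 0 members, beside 0.459% of genes called higher and 0.49% called lower. Depth limits CDH1 and EPCAM, which stayed at or below 3 fragments. The CDH1 to CDH2 difference ran from 0.22 to 0.35 with libraries left out, and the ratio without an added value could not be computed in shNME7 2.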

Other observations

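Markers of other mesenchymal and endothelial cells were uneven. Of 10 fibroblast and stellate cell markers 5 entered limma-trend. That test and limma-voom called 0, and 0 had an unadjusted p under 0.05. Their summed level was 101 and 99.3 FPKM in shNME7 and 105 and 94.8 FPKM in shCtrl. Most of that was COL3A1, a fibrillar collagen gene, at 75.1 and 76.6 FPKM in shNME7 and at 75.8 and 66.9 FPKM in shCtrl. LUM, a small matrix proteoglycan gene, stood at 13.9 and 9.88 FPKM in shNME7 and at 14.1 and 14.5 FPKM in shCtrl. COL1A2, which encodes the partner chain of COL1A1 in type I collagen, had at most 2 fragments in any library, and the fibroblast receptor gene PDGFRA had 0 in all 4.

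Of 10 endothelial markers, 1 was tested and 0 passed. The vascular cadherin gene CDH5 stood at 1.88 and 2.67 FPKM in shNME7 and at 1.70 and 1.31 FPKM in shCtrl, with no overlap and an adjusted p of 0.795 in limma-trend. It was above both epithelial members in each library. KDR and EMCN had 0 fragments in all 4 libraries. The list summed to 4.11 and 5.18 FPKM in shNME7 and to 3.49 and 3.31 FPKM in shCtrl. CDH5 had an unadjusted p under 0.05 in limma-voom but not in limma-trend. It was 1 of 4 markers in limma-voom, beside 3.94% of all genes higher at that p.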
